A study of Mus musculus with 7 samples.

Results

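Collagen chain genes were taken from the RNA-seq table of mouse uterus as every gene symbol made of Col, a number, the letter a and a number. The table listed 44 such symbols among 24964, and each was sorted by textbook class. The classes held 11 fibrillar chains, 6 basement membrane chains, 9 FACIT chains (fibril-associated collagens with interrupted triple helices), the anchoring fibril chain Col7a1, 6 beaded filament chains, 3 short chain network chains, 4 transmembrane chains, 2 multiplexins and 2 others. Whole uterus was collected in diestrus, the quiet phase of the cycle, from mice 12 weeks old. The 3 control libraries (replicates 1, 2 and 4) had the genotype Pgrcre/+, and 4 libraries (replicates 1 to 4) had Pgrcre/+Foxl2LsL/+, called Foxl2-LSL below. Both groups thus carried Pgr-Cre, a Cre recombinase expressed from the progesterone receptor locus, which is active in several uterine cell types at once. The labels do not spell out the second allele or say whether a library is 1 animal, so p-values measure the spread between these libraries, which may be technical in part.

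Collagens are the main structural proteins of the extracellular matrix. Each molecule is a trimer of chains wound into a triple helix, built from a single chain type or from partners encoded by separate genes. In the uterus, fibrillar collagens carry the load of stroma and muscle, type IV collagen forms the sheet under epithelium, around vessels and around muscle cells, and type VII collagen anchors basement membranes to the fibrils beneath. Chains are hydroxylated, glycosylated and folded in the endoplasmic reticulum, trimmed after secretion and then cross-linked.

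Values are FPKM (fragments per kilobase of gene, scaled to the size of the library), so levels of different chains can be compared per length. A value after ± is the SD, with n = 3 controls or n = 4 Foxl2-LSL libraries. Each column corresponded to 47800000 to 67300000 fragments. Foxl2, the gene named by the second allele (chromosome 9, 98955288 to 98958543, GRCm38), was at 11.1, 19.3 and 12.9 FPKM in controls 1, 2 and 4 and at 12.7, 14.3, 14.8 and 17.2 FPKM in Foxl2-LSL 1 to 4. The groups overlapped (limma log2 fold change 0.06, SE 0.18, adjusted p 0.818; two-sided exact permutation p 0.800), so Foxl2 did not separate the groups as the labels do, and whether transcripts of the second allele would be counted on this gene is not given in the sources used here. Directions below are those of the libraries labelled Foxl2-LSL. Uterine markers were present in every library (summed FPKM of Hoxa10, Hoxa11, Pgr and Esr1 from 115 to 269), but their levels were not stable. Of these 4 markers 2 were lower, Hoxa10 (means of 77.9 and 25.4 FPKM) and Hoxa11 (51.9 and 12.0 FPKM, also listed as stromal below). Esr1 was higher (39.8 and 58.2 FPKM), and Pgr did not pass.

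Cell type markers also moved between the groups. Calls are at an adjusted p under 0.05 (limma), which 23.9% of all tested genes passed as lower and 16.7% as higher. Of 6 stromal markers 4 were lower, with summed levels of 274 to 512 FPKM in controls and 207 to 227 in Foxl2-LSL libraries. The call of Vim, among these 4, was kept in only 9 of 18 alternatives. All 5 endothelial markers were lower (105 to 143 against 69.6 to 77.5 FPKM), as were both tested gland markers, Foxa2 and Cxcl15. Of 6 smooth muscle markers 2 were higher, and their sums overlapped (827 to 1640 against 1470 to 1910 FPKM). Summed epithelial markers overlapped as well (528 to 1090 against 864 to 1170 FPKM), with 1 of 5 higher. Gland marker sums were 26.5 to 41.9 and 4.67 to 6.98 FPKM, leukocyte sums 20.2 to 30.6 and 31.6 to 52.5 FPKM, with 1 of 3 tested markers higher, and basal epithelial sums 0.493 to 0.690 and 0.685 to 2.83 FPKM. Mesothelial sums overlapped (40.5 to 71.2 and 19.6 to 73.0 FPKM). Red blood cell sums reached 1.30 FPKM at most and came from Alas2 alone. The globin genes Hbb-bs and Hba-a1 read 0 in every library, so these sums cannot gauge blood content. Adipocyte marker sums ran from 0.0160 to 49.7 FPKM without following the groups. Cartilage sums were 2.21 to 4.50 FPKM in controls and at most 3.47 in Foxl2-LSL libraries, and the cartilage markers Acan and Matn1 were at or near 0 throughout. The part of cell composition in the collagen differences was not tested. In whole tissue, fewer cells of a type and less RNA per cell cannot be told apart.

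More collagen chains were lower than higher in Foxl2-LSL uterus, and 13 of those tested passed in neither direction. Of the 28 chains with a mean of at least 1 FPKM over all libraries, 13 were lower and 2 were higher at an adjusted p under 0.05 (limma on log2(FPKM + 1), Benjamini-Hochberg over all 13334 tested genes). Among all tested genes 23.9% were lower, 16.7% were higher and 40.6% passed in either direction, against 46.4%, 7.14% and 53.6% of the tested chains. The groups did not overlap in 16 of the 28 chains, against 47.6% of all tested genes. The median log2 fold change of the chains was -0.75, and that of all tested genes was -0.05. By class, falls were found in 3 of 5 tested basement membrane chains, 3 of 5 FACIT chains, 4 of 5 beaded filament chains, 1 of 2 multiplexins, Col7a1 and Col26a1, and in 0 of 7 fibrillar chains. No test of a class as a whole was made.

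**Figure D1:**
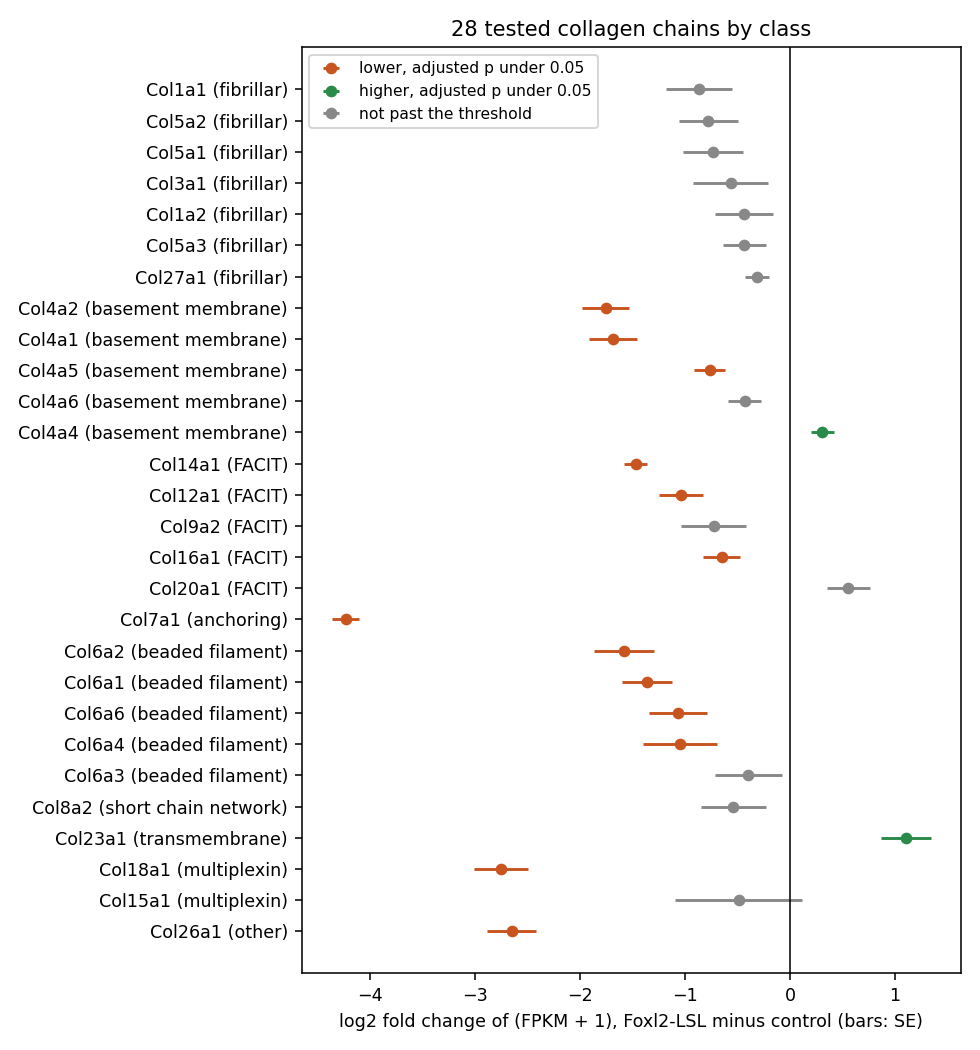
Log2 fold change of (FPKM + 1), Foxl2-LSL minus control, for the 28 tested collagen chains grouped by class, with horizontal bars for the SE and colour for the call. Col7a1 lies farthest left at -4.23, all 7 fibrillar chains lie left of 0 without passing the threshold, and Col23a1 at 1.10 and Col4a4 at 0.31 are the chains called higher.

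Col7a1 encodes the chain of type VII collagen, whose trimers of a single chain type form anchoring fibrils under stratified epithelia. The gene lies on chromosome 9 at 108953586 to 108984875 (plus strand, GRCm38, GENCODE M21). It was at 29.6, 27.7 and 40.1 FPKM in controls 1, 2 and 4. In Foxl2-LSL 1 to 4 it was at 0.635, 0.760, 0.904 and 0.751 FPKM. Every control lay far above every Foxl2-LSL library, with a 42.6-fold ratio of the means. The log2 fold change was -4.23 (SE 0.13, limma adjusted p 1.13e-05), and the call held in all 18 alternatives (adjusted p up to 0.00687). The fall rested on 17130 to 24205 fragments per control and 334 to 503 per Foxl2-LSL library. Col7a1 passed the filter through its controls alone.

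The 250 bases before the Col7a1 start (RefSeq, GRCm38.p6, chr9:108953336-108953585, plus strand) are shown because this chain had the largest log2 fold change of the 28 tested. Capitals mark a CCAAT box (CCAAT, here read on the other strand) and a GC box (GGGCGG), promoter elements common to many genes.
Col7a1: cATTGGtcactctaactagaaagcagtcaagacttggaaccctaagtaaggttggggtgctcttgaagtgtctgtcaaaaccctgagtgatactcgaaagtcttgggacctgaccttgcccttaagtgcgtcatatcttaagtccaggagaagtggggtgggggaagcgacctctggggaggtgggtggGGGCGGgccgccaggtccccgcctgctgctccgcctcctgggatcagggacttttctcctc
Neither a TATA box (TATAAA) nor the forkhead core GTAAACA, searched on both strands, occurs in these letters. Over all 32851 such windows in the RefSeq table, 33.8% held CCAAT, 32.7% GGGCGG, 12.4% TATAAA and 3.17% GTAAACA.

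Of 8 tested partner genes that tie type VII collagen to the epithelium, 3 were higher and 0 were lower (37.5% called, close to the 40.6% of all tested genes). Itgb4, the beta-4 integrin of hemidesmosomes, was at 7.91 to 10.5 FPKM in controls and at 17.9 to 32.3 FPKM in Foxl2-LSL libraries (log2 fold change 1.25, limma adjusted p 0.00201). All Foxl2-LSL libraries lay above all controls. The plakins Dst and Plec, which link keratin filaments to hemidesmosomes, rose by 0.74 and 0.47 on the log2 scale. Summed epithelial markers overlapped between the groups, as given above. Among them Krt18 was higher (123 ± 30.7 and 212 ± 24.2 FPKM, limma adjusted p 0.00854), and the others did not pass. The part of epithelial content in these rises was not tested.

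Type IV collagen is the network of basement membranes, and its common form combines Col4a1 and Col4a2. Col4a1 was at 63.6, 84.0 and 136 FPKM in controls 1, 2 and 4 and at 28.7, 25.5, 26.3 and 29.0 FPKM in Foxl2-LSL 1 to 4. Col4a2 was at 45.5, 61.0 and 95.1 FPKM against 19.8, 16.9, 16.9 and 19.7 FPKM. Both chains were lower in every Foxl2-LSL library than in any control, and the Foxl2-LSL libraries were far more alike than the controls. Their log2 fold changes were -1.68 (SE 0.22, limma adjusted p 0.00138) and -1.76 (SE 0.22, adjusted p 0.00113). Both calls held in all 18 alternatives.

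These genes sit head to head on chromosome 8, with Col4a1 on the minus strand (11198423 to 11312826) and Col4a2 on the plus strand (11312805 to 11449287). Their annotated first exons overlap by 22 bases, printed here because a start region in common joins the chains that fell most among the type IV genes (GRCm38.p6, RefSeq, chr8:11312805-11312826, plus strand).
Col4a1 and Col4a2 overlap: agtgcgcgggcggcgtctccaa
Reads on these bases cannot be assigned to either gene unless the counting used strand, which the sources used here do not give.

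The other type IV pairs also lie head to head but moved less. Col4a5 and Col4a6, on chromosome X and 1.31 kb apart, encode the chains of the network found around smooth muscle. Col4a5 fell from 20.9 ± 5.32 FPKM to 11.7 ± 0.729 FPKM, a log2 fold change of -0.76 (limma adjusted p 0.00537). Its neighbour Col4a6 was at 9.45 ± 2.61 and 6.63 ± 0.685 FPKM, and its log2 fold change of -0.43 missed the threshold (adjusted p 0.0620), although the groups did not overlap. Col4a3 and Col4a4, best known from kidney and lung basement membranes, are 71 bases apart on chromosome 1 and were scarce here. Col4a4 was at 1.32 ± 0.189 FPKM in controls and 1.87 ± 0.187 FPKM in Foxl2-LSL libraries, and it rose by 0.31 on the log2 scale at the edge of the threshold (adjusted p 0.0481). That call was lost when any of the 7 libraries was left out (adjusted p 0.0501 to 0.156). Col4a3 had a mean of 0.968 FPKM over all libraries, below the filter, and its groups overlapped.

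**Figure D2:**
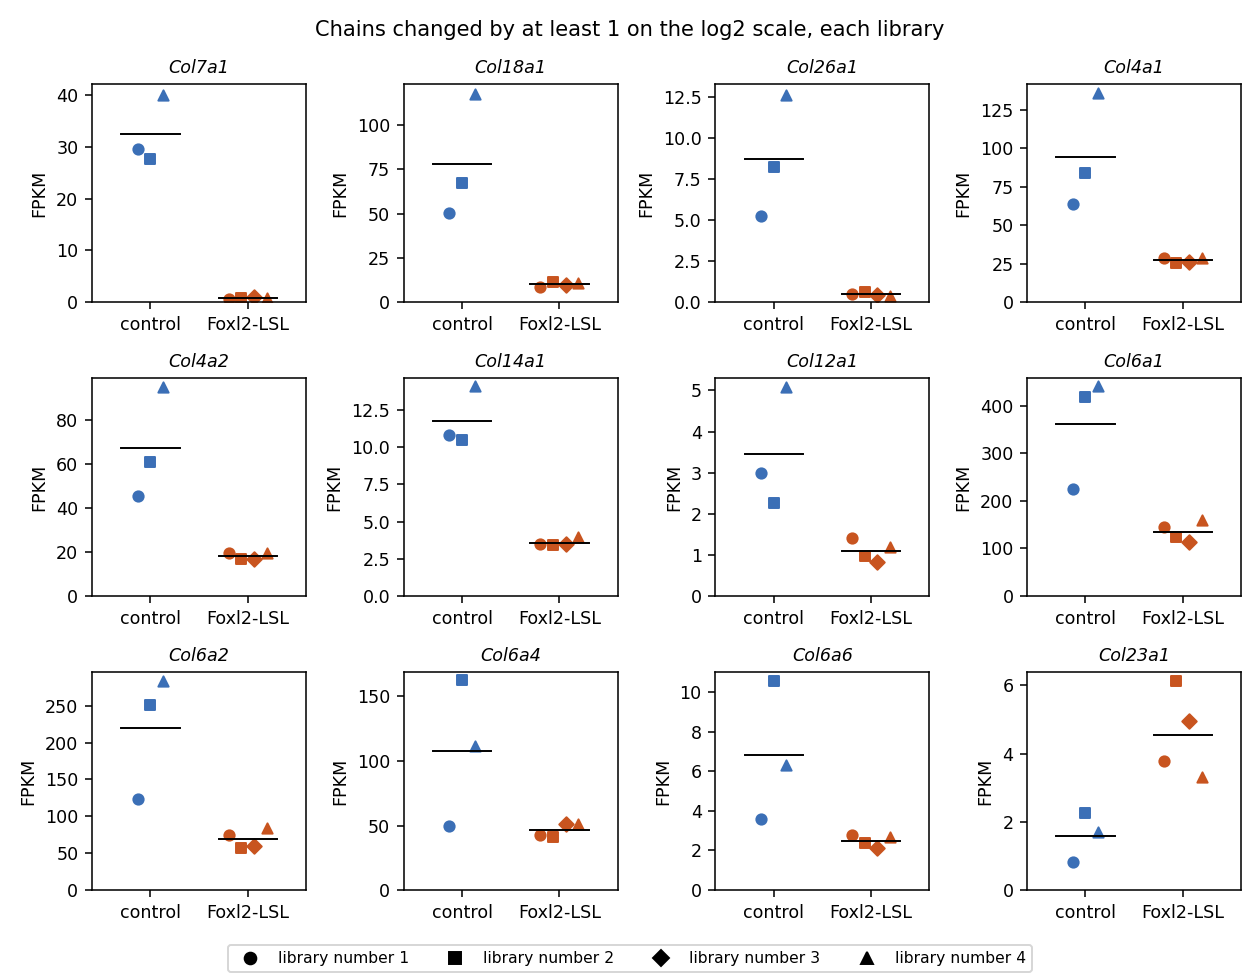
FPKM of the 12 chains whose log2 fold change passed the threshold with a size of at least 1, 1 panel per gene with its own linear axis from 0, points for libraries (marker shape gives the replicate number) and lines for group means. The 4 Foxl2-LSL points lie close together in most panels, while control 4 is the highest control for Col7a1, Col18a1, Col26a1, Col4a1, Col4a2, Col14a1, Col12a1, Col6a1 and Col6a2.

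The multiplexins are basement membrane collagens with many breaks in the helix, and Col18a1 is the source of the fragment endostatin. Col18a1 (chromosome 10, 77052178 to 77166548, minus strand) was at 50.3, 67.0 and 117 FPKM in controls 1, 2 and 4. The Foxl2-LSL libraries 1 to 4 held 8.49, 11.1, 9.85 and 11.01 FPKM. The highest Foxl2-LSL library was thus far below the lowest control, a 7.73-fold ratio of the means (log2 fold change -2.75, SE 0.26, limma adjusted p 0.000411, called in all 18 alternatives).

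Col18a1 has separate starts for its long and short forms, and the table of gene values cannot tell them apart. Both upstream windows (RefSeq, GRCm38.p6) are shown for that reason, with CCAAT and GC boxes in capitals. They lie at chr10:77166531-77166780 and chr10:77113706-77113955, both minus strand and read in the direction of the gene.
Col18a1 distal start: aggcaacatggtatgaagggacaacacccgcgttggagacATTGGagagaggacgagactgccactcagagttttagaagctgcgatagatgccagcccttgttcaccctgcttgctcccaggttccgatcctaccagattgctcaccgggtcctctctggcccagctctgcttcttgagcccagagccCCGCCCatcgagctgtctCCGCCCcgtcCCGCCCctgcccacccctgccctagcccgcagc
Col18a1 internal start: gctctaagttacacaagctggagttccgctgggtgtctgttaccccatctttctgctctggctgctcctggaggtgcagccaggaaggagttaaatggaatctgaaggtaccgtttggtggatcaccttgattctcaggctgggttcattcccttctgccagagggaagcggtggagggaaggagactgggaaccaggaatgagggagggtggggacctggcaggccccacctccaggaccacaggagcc
The distal window held 3 GC boxes and 1 CCAAT box, and the internal window held none of the 4 motifs searched.

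Col15a1, the other multiplexin and a marker of basement membranes around muscle and capillaries, behaved differently. It was at 10.7, 21.1 and 92.0 FPKM in controls 1, 2 and 4 and at 18.4, 17.6, 23.1 and 19.7 FPKM in Foxl2-LSL 1 to 4. Control 4 stood apart from all other libraries, while control 1 lay below the Foxl2-LSL range and control 2 within it. The log2 fold change was -0.49 (SE 0.60, limma adjusted p 0.549) and became 0.36 without control 4 (adjusted p 0.264).

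Type VI collagen forms beaded filaments around cells. Its main trimer is assembled from Col6a1, Col6a2 and Col6a3, and Col6a4, Col6a5 and Col6a6 encode chains related to the third. Col6a1 was at 225, 418 and 440 FPKM in controls 1, 2 and 4 and at 145, 123, 113 and 159 FPKM in Foxl2-LSL 1 to 4. The groups did not overlap (log2 fold change -1.36, SE 0.24, limma adjusted p 0.00408). Col6a2 went from 123, 251 and 284 FPKM to 74.7, 57.1, 59.9 and 84.7 FPKM, again without overlap (log2 fold change -1.58, SE 0.29, adjusted p 0.00445). Both calls held in all 18 alternatives.

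Col6a3, which carries the largest chain of the trimer, did not share that fall. It was at 30.3, 79.1 and 54.4 FPKM in controls 1, 2 and 4 and at 43.6, 29.0, 34.5 and 49.4 FPKM in Foxl2-LSL 1 to 4. The groups overlapped (log2 fold change -0.40, SE 0.31, limma adjusted p 0.346). Of 18 alternatives it passed in 1, the fit without control 1, at -0.76 with a limma adjusted p of 0.0438. Without control 2 it was at -0.08 (adjusted p 0.853).

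Col6a6, Col6a5 and Col6a4 lie in a row on chromosome 9, with gaps of 27.9 and 28.8 kb in that order. Col6a4 was at 49.5, 162 and 112 FPKM in controls and at 42.7, 41.2, 50.9 and 51.2 FPKM in Foxl2-LSL libraries, so control 1 fell inside the Foxl2-LSL range. Its log2 fold change of -1.05 passed narrowly (limma adjusted p 0.0461), and leaving out any library other than control 1 ended the call (adjusted p 0.0776 to 0.133). Col6a6 was at 3.58, 10.6 and 6.30 FPKM against 2.77, 2.38, 2.13 and 2.70 FPKM, with no overlap. It fell by 1.06 on the log2 scale (adjusted p 0.0182, and 0.0514 without Foxl2-LSL 3). Col6a5 stayed under the filter at 0.483 ± 0.207 FPKM and 0.145 ± 0.0243 FPKM.

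FACIT collagens sit on the surface of fibrils. Col14a1, which helps set fibril diameter, was at 10.8, 10.5 and 14.1 FPKM in controls 1, 2 and 4. All 4 Foxl2-LSL libraries lay between 3.44 and 3.96 FPKM, with libraries 1 to 4 at 3.47, 3.44, 3.46 and 3.96. The log2 fold change was -1.47 (SE 0.11, limma adjusted p 0.000203). Col12a1, a FACIT of dense connective tissue, was at 2.996, 2.27 and 5.08 FPKM against 1.41, 0.982, 0.836 and 1.20 FPKM, also without overlap (log2 fold change -1.04, SE 0.21, adjusted p 0.00700). Both calls held in every alternative that tested them.

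Col16a1 was the most abundant FACIT chain. Controls 1, 2 and 4 held 34.5, 43.9 and 58.2 FPKM, and Foxl2-LSL libraries 1 to 4 held 33.1, 25.8, 25.05 and 28.6 FPKM. The groups nearly touched, with control 1 only slightly above Foxl2-LSL 1. The log2 fold change was -0.65 (limma adjusted p 0.0207), and the call was lost without control 2 (0.0580), Foxl2-LSL 2 (0.0503) or Foxl2-LSL 3 (0.0583). Col20a1 was the tested FACIT chain with a positive value, at 5.03 ± 1.62 and 7.75 ± 1.54 FPKM, and did not pass (log2 fold change 0.56, adjusted p 0.0646). It passed after quantile normalization, after median centring and without control 2. Col9a2 was at 3.23 ± 2.03 and 1.44 ± 0.579 FPKM with overlap (adjusted p 0.0964).

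Col22a1, a FACIT of tissue junctions, was not tested because its mean was 0.698 FPKM. It was at 0.522, 0.939 and 3.32 FPKM in controls 1, 2 and 4 and at 0.0270, 0.0240, 0.0320 and 0.0220 FPKM in Foxl2-LSL libraries. These levels stood for 203 to 1335 fragments per control and 7 to 12 per Foxl2-LSL library, above the 3 fragments taken as the limit of detection. Without a filter its log2 fold change was -1.19 (limma adjusted p 0.0359), a size that the added pseudocount of 1 holds down, and control 4 was well above the other controls. Without the filter 19 of all 44 chains passed, against 27.6% of the 21011 genes tested that way. The chains gained were Col11a1, Col22a1, Col25a1 and Col6a5, all lower, and Col17a1 and Col28a1, both higher. Col4a4 and Col6a4 lost their calls there.

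The fibrillar collagens were the most abundant class and none of their 7 tested chains passed the threshold. Col3a1, the main chain of elastic tissues, was at 244, 491 and 773 FPKM in controls 1, 2 and 4 and at 369, 242, 287 and 340 FPKM in Foxl2-LSL 1 to 4. Control 1 lay within the Foxl2-LSL range and the other controls above it (log2 fold change -0.56, SE 0.36, limma adjusted p 0.237). Type I collagen combines the chains of Col1a1 and Col1a2. Col1a1 was at 191, 344 and 466 FPKM against 214, 128, 150 and 211 FPKM (log2 fold change -0.86, SE 0.31, adjusted p 0.0595), with control 1 inside the Foxl2-LSL range. It passed after rescaling to a common sum (adjusted p 0.0477) and without control 1 (0.0100). Col1a2 had a log2 fold change of -0.44 (adjusted p 0.234) and passed in no alternative.

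The type V chains had their controls in the same order as Col1a1 and Col3a1. Type V collagen starts the assembly of type I fibrils. Col5a1 was at 32.4 ± 13.04 FPKM in controls and 18.2 ± 3.31 FPKM in Foxl2-LSL libraries, Col5a2 at 37.7 ± 18.7 and 20.1 ± 2.23, and Col5a3 at 8.37 ± 2.22 and 5.89 ± 1.27 (adjusted p 0.0749, 0.0573 and 0.122). Col5a2 lies 24.6 kb from Col3a1, tail to tail on chromosome 1. Col27a1 was at 5.58 ± 0.420 and 4.31 ± 0.718 FPKM (adjusted p 0.0620). Leaving out control 1 brought Col1a1, Col3a1, Col5a1, Col5a2 and Col5a3 past the threshold, all lower. Leaving out control 4 instead shrank their log2 fold changes to -0.58, -0.18, -0.49, -0.41 and -0.27, in that order. None of them passed then (limma adjusted p 0.0665 to 0.649). With control 1 kept, Col1a1, Col5a2 and Col27a1 passed after rescaling to a common sum (adjusted p 0.0477, 0.0491 and 0.0492), and Col27a1 without Foxl2-LSL 1 (0.0205). Without control 1, 21 of 29 tested chains passed, against 36.5% of all tested genes.

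Fibrillar chains under the filter included Col11a1, which nucleates cartilage fibrils with Col2a1. It was at 0.518, 1.21 and 3.32 FPKM in controls 1, 2 and 4 and at 0.176, 0.120, 0.118 and 0.141 FPKM in Foxl2-LSL libraries, with no overlap (log2 fold change -1.10 without a filter, limma adjusted p 0.0423). Col2a1 reached 0.776 FPKM in control 2 and 0.0550 FPKM at most elsewhere. Col11a2 and Col24a1 had means of 0.854 and 0.457 FPKM with overlapping groups.

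Transmembrane collagens are cell surface proteins with a collagenous outer part, and Col23a1 was the member that rose. It lies on chromosome 11 (51289920 to 51583918, plus strand). Col23a1 was at 0.830, 2.27 and 1.70 FPKM in controls 1, 2 and 4 and at 3.78, 6.12, 4.96 and 3.30 FPKM in Foxl2-LSL 1 to 4. Every Foxl2-LSL library exceeded every control, a 2.84-fold ratio of the means (log2 fold change 1.10, SE 0.24, limma adjusted p 0.00877, called in every alternative that tested it). Its upstream window (RefSeq, GRCm38.p6, chr11:51289670-51289919, plus strand) is shown beside those of the chains that fell, with its GC box in capitals.
Col23a1: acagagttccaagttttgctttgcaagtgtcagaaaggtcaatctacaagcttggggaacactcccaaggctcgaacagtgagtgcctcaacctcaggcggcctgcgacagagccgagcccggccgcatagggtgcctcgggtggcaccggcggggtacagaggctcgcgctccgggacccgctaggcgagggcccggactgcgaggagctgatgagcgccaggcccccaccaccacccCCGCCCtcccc
This window holds 1 GC box and none of the other 3 motifs. Col17a1, the hemidesmosome collagen of basal keratinocytes, was scarce but also did not overlap, at 0.162 to 0.338 FPKM in controls and 0.573 to 1.30 FPKM in Foxl2-LSL libraries (no filter, adjusted p 0.0279). The basal epithelial marker Krt5 was at 0.0340 to 0.0580 FPKM in controls and 0.483 to 2.22 in Foxl2-LSL libraries, while the other basal markers, Krt14 (means of 0.240 and 0.136 FPKM) and Trp63 (0.286 and 0.257 FPKM), overlapped. The part of such cells in the Col17a1 difference was not tested. Col25a1 was scarce and lower, at 0.248 ± 0.00757 against 0.0730 ± 0.0273 FPKM (no filter, log2 fold change -0.22, limma adjusted p 0.00162). Its values stood for only 119 to 124 fragments per control and 22 to 55 per Foxl2-LSL library. Col13a1 overlapped around a mean of 0.788 FPKM.

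Among the remaining chains, Col26a1 showed the larger difference. Col26a1, a little studied chain first described in testis and ovary, lies on chromosome 5 (136741759 to 136883209, minus strand). It was at 5.28, 8.27 and 12.7 FPKM in controls 1, 2 and 4 and at 0.482, 0.587, 0.452 and 0.392 FPKM in Foxl2-LSL 1 to 4. The groups were far apart, with an 18.3-fold ratio of the means (log2 fold change -2.65, SE 0.23, limma adjusted p 0.000345), and like Col7a1 it passed the filter through its controls. Col28a1, known from nerve sheaths, was higher at a low level, with 0.271 ± 0.278 FPKM in controls and 0.916 ± 0.251 FPKM in Foxl2-LSL libraries (no filter, adjusted p 0.0327). In Col28a1, control 4 at 0.591 FPKM lay just under Foxl2-LSL 1 at 0.595 FPKM.

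The short chain network collagens did not pass. Col8a2, a chain of the type VIII network of vessels and cornea, was at 6.66, 4.52 and 3.26 FPKM in controls 1, 2 and 4 and at 3.39, 2.29, 1.59 and 5.08 FPKM in Foxl2-LSL 1 to 4. The groups overlapped (log2 fold change -0.54, limma adjusted p 0.198). Col8a1 was at 0.602 ± 0.180 and 0.549 ± 0.0535 FPKM. Col10a1, the chain of hypertrophic cartilage, had 1 to 7 fragments in any library, and Col19a1 1 to 9. Col9a1 was at 0.0960 FPKM or less everywhere, and Col9a3 at 0.368 to 1.18 FPKM with overlap.

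Summed over all 44 chains, collagen stood at 1439, 2542 and 3354 FPKM in controls 1, 2 and 4 and at 1409, 994, 1094 and 1386 FPKM in Foxl2-LSL 1 to 4. This was 0.451% to 1.06% of all listed FPKM in controls and 0.327% to 0.433% in Foxl2-LSL libraries. Control 1 lay only just above the highest Foxl2-LSL library, and control 4 was the highest library. Fibrillar chains made up 49.0% to 54.3% of collagen FPKM in controls and 59.7% to 67.1% in Foxl2-LSL libraries, and basement membrane chains 6.80% to 9.50% and 5.02% to 6.42%. Ordered by level, Col3a1, Col6a1, Col1a2, Col1a1 and Col6a2 led the controls (means of 502, 361, 335, 334 and 219 FPKM). The neighbours Col6a1, Col1a2 and Col1a1 did not differ there beyond their spread. In Foxl2-LSL libraries the order was Col3a1, Col1a2, Col1a1, Col6a1 and Col6a2 (310, 242, 176, 135 and 69.1 FPKM).

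**Figure D3:**
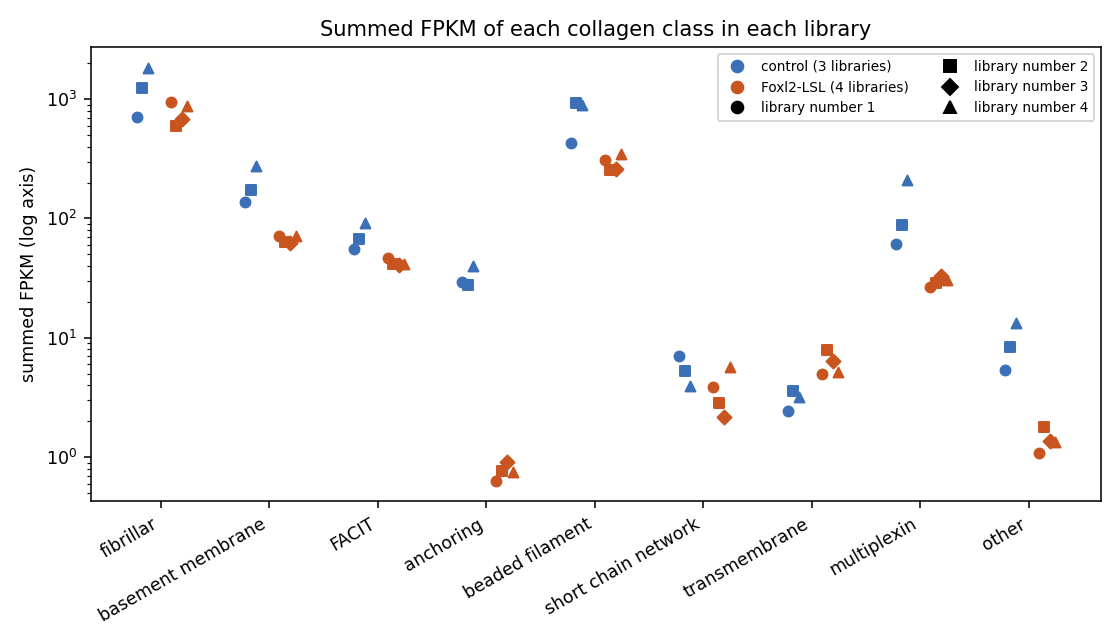
Summed FPKM of each collagen class on a log axis, with controls in blue, Foxl2-LSL libraries in orange and marker shapes for replicate numbers. Foxl2-LSL sums lie below all controls for basement membrane, FACIT, anchoring, beaded filament, multiplexin and other chains, above them for transmembrane chains, and overlap for fibrillar and short chain network chains.

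Some pairs of chains that assemble together differed in ratio between the groups, and others overlapped. The ratio of Col1a1 to Col1a2 was 0.870 to 1.06 in controls and 0.695 to 0.765 in Foxl2-LSL libraries. Col6a3 relative to Col6a1 was 0.124 to 0.189 in controls and 0.235 to 0.311 in Foxl2-LSL libraries, and Col6a2 relative to Col6a1 was 0.547 to 0.644 and 0.463 to 0.533. Thus the third chain of type VI collagen held a larger share of the trimer's transcripts in Foxl2-LSL uterus. For the pair Col4a2 and Col4a1 the ratio was 0.699 to 0.727 in controls and 0.644 to 0.691 in Foxl2-LSL libraries. For Col4a6 and Col4a5 it was 0.437 to 0.460 and 0.545 to 0.619. The ratio of Col5a2 to Col5a1 overlapped (0.876 to 1.36 and 1.04 to 1.27), as did those of Col8a2 to Col8a1 and of Col4a4 to Col4a3. These ratios are descriptions without a test, and ratios of other gene pairs were not computed for comparison. Among single tested genes, the groups did not overlap in 47.6%.

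**Figure D4:**
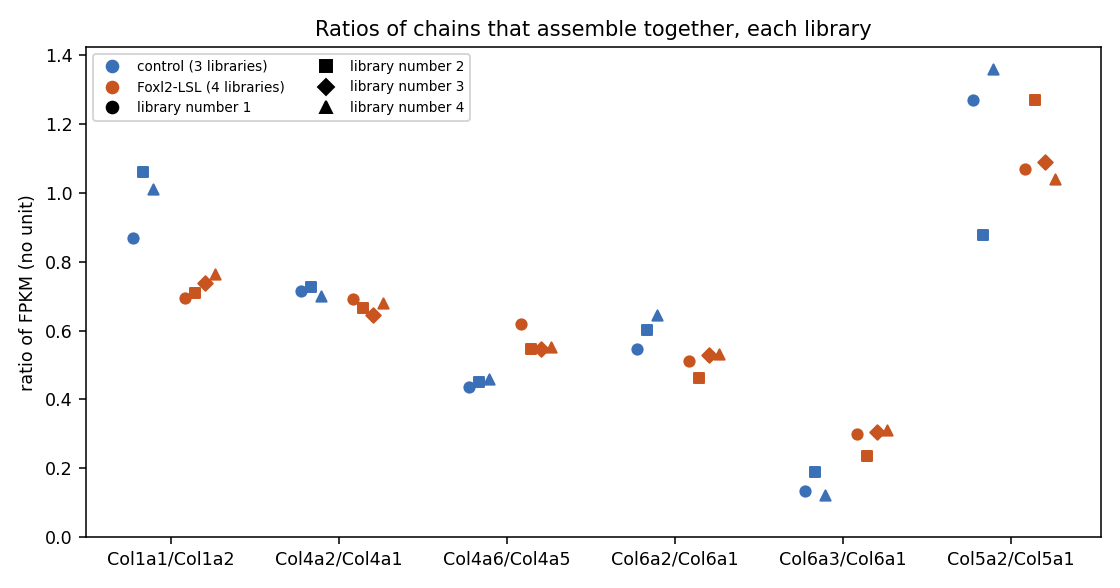
Ratio of FPKM (no unit) for 6 pairs of chains in each library, with controls in blue, Foxl2-LSL in orange and shapes for replicate numbers. The groups separate upward for Col6a3/Col6a1 and Col4a6/Col4a5 and downward for Col1a1/Col1a2, Col6a2/Col6a1 and, nearly touching, Col4a2/Col4a1. They overlap for Col5a2/Col5a1, and also for Col8a2/Col8a1 and Col4a4/Col4a3, which are not shown.

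Collagens varied among controls more than most genes did. The median SD of log2(FPKM + 1) was 0.535 over the 28 chains in controls and 0.173 in Foxl2-LSL libraries, against 0.142 and 0.118 over all tested genes. Control 4 was the highest control for 20 of 28 chains and control 1 the lowest for 21. Over all tested genes those shares were 33.3% and 35.8%. Summed stromal markers had the same order (274, 337 and 512 FPKM in controls 1, 2 and 4), and summed epithelial markers the opposite (1090, 799 and 528 FPKM). On the second principal component of all tested genes, controls 1 and 4 lay at opposite ends, at 25.2 and -31.9. The part of tissue composition in this order was not tested.

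Genes that make, modify and bind collagen were read from lists of 79 genes, of which 66 passed the filter. Of these, 20 were lower and 13 were higher, 50.0% in all against 40.6% of all tested genes. The list for folding and modification had the most falls, 10 of 18 against 1 rise (55.6% lower, against 23.9% of all tested genes). Of these falls, P3h3 and Plod3 kept their calls in only 9 and 10 of 18 alternatives. Crtap and Plod1 kept theirs in 15 of 18 and lost them under the replicate block. Serpinh1, the collagen chaperone HSP47, was at 220, 398 and 521 FPKM in controls 1, 2 and 4 and at 161, 136, 138 and 161 FPKM in Foxl2-LSL 1 to 4. Controls again lay above all Foxl2-LSL libraries, in the same order as the collagen sums (log2 fold change -1.26, SE 0.26, limma adjusted p 0.00757). P4ha2, a prolyl 4-hydroxylase subunit, fell from 30.5 ± 2.43 FPKM to 12.4 ± 3.37 FPKM, and P3h1, a prolyl 3-hydroxylase, from 14.7 ± 6.27 to 5.37 ± 0.543 FPKM. P4hb, the beta subunit of prolyl 4-hydroxylase, fell by 0.33 on the log2 scale (adjusted p 0.0412), a call kept in 7 of 18 alternatives. P4ha1, an alternative to P4ha2 in that enzyme, was at 14.7 ± 2.75 and 11.2 ± 2.46 FPKM and did not pass (adjusted p 0.141). The rise was in Tmem38b, an ion channel of the endoplasmic reticulum needed for collagen maturation (0.29 on the log2 scale, adjusted p 0.0297), a call lost in 9 of 18 alternatives.

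Of 10 procollagen processing genes 3 were lower and 2 higher (50.0% called, against 40.6% of all tested genes). Pcolce2, an enhancer of C-propeptide cleavage, was at 2.38, 2.98 and 1.76 FPKM in controls 1, 2 and 4 and at 20.4, 28.9, 36.2 and 26.6 FPKM in Foxl2-LSL 1 to 4. It was higher in every Foxl2-LSL library (log2 fold change 3.09, SE 0.20, limma adjusted p 0.000131). Of the C-proteinases it acts with, Bmp1 fell by 0.57 and Tll1 rose by 1.09 on the log2 scale (adjusted p 0.00527 and 0.00502). Adamts14, an N-propeptidase, fell by 1.06 (adjusted p 0.00833). Tll1 passed the filter through its Foxl2-LSL libraries (0.716 against 2.70 FPKM) and Adamts14 through its controls (3.14 against 0.930 FPKM).

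Among 6 cross-linking genes 2 fell and 0 rose (33.3% called, under the 40.6% of all tested genes). Loxl2, a lysyl oxidase that acts on type IV collagen, fell from 18.5 ± 7.34 FPKM to 6.76 ± 0.816 FPKM. Pxdn, the peroxidase that forms sulfilimine bonds in type IV collagen, was at 41.9, 41.2 and 40.6 FPKM in controls 1, 2 and 4 and at 18.9, 21.3, 15.5 and 16.9 FPKM in Foxl2-LSL 1 to 4. The controls were nearly equal for Pxdn, and the groups did not overlap (log2 fold change -1.15, SE 0.11, limma adjusted p 0.000408). Lox, the main lysyl oxidase of fibrillar collagen, was at 7.60 ± 2.53 and 8.59 ± 2.34 FPKM and did not pass.

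Of 11 fibril partners 4 were higher, 1 was lower and 6 did not pass (45.5% called, against 40.6% of all tested genes). Ogn, a small leucine-rich proteoglycan, was at 26.2, 45.2 and 40.1 FPKM in controls 1, 2 and 4 and at 140, 137, 112 and 162 FPKM in Foxl2-LSL 1 to 4. No library of either group reached the other (log2 fold change 1.89, limma adjusted p 0.000588). Prelp, Dcn and Podn, of the same proteoglycan family, rose by 1.45, 1.25 and 1.16 on the log2 scale. Fn1, the fibronectin on which collagen fibrils assemble, fell from 108 ± 45.4 to 31.5 ± 4.33 FPKM. Dcn and Podn were named after their values were seen.

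Of 7 receptors 1 was higher and 1 was lower (28.6% called, under the 40.6% of all tested genes). Ddr1, the collagen receptor of epithelia, was at 28.3 ± 8.13 and 41.3 ± 2.12 FPKM (limma adjusted p 0.0331), and Cspg4 fell by 0.53 on the log2 scale (0.0446). Each lost its call in several fits that left out a library. Ddr2, the fibroblast receptor, was at 23.9 ± 3.10 and 23.3 ± 2.41 FPKM (adjusted p 0.843). Of 6 breakdown and uptake genes, 3 were lower and 2 higher (83.3% called, against 40.6% of all tested genes). Among these calls, Ctsk (lower) and Fap (higher) kept theirs in only 5 and 9 of the alternatives that tested them. Mmp2, a gelatinase that degrades type IV collagen, was at 86.6, 117 and 136 FPKM in controls 1, 2 and 4 and at 27.5, 40.3, 27.6 and 31.6 FPKM in Foxl2-LSL 1 to 4. The groups were well apart (log2 fold change -1.79, SE 0.18, adjusted p 0.000567). Its relative Mmp9 rose from 1.17 ± 0.173 to 3.50 ± 0.765 FPKM, and Mmp14, the membrane protease that activates Mmp2, fell by 0.52 on the log2 scale.

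**Figure D5:**
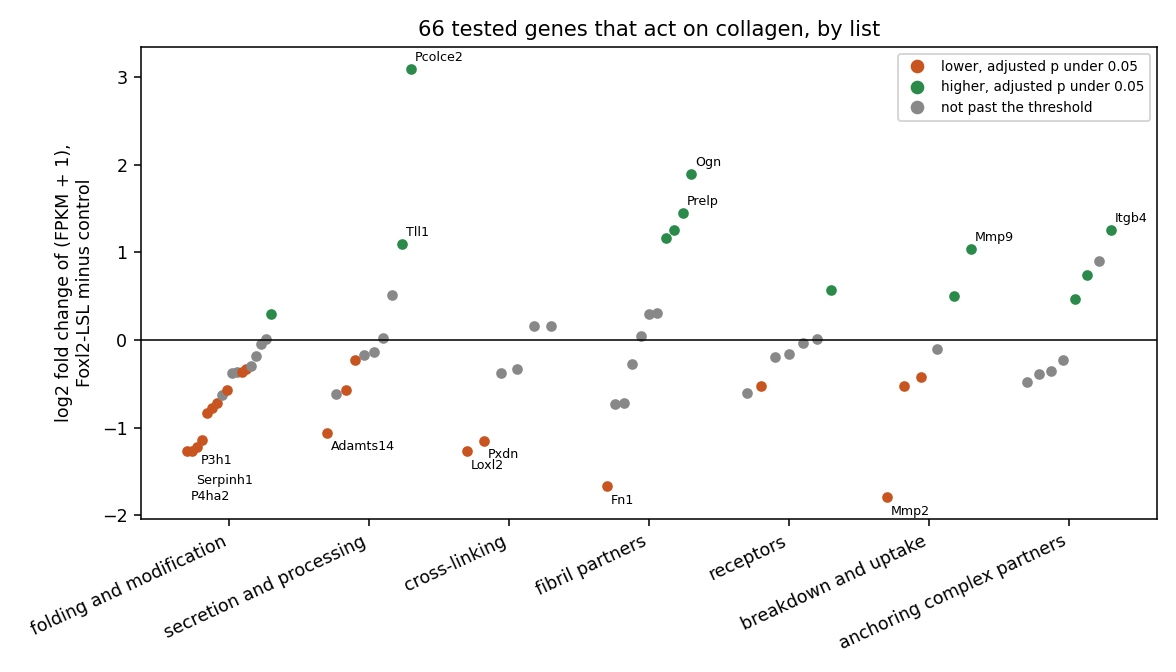
Log2 fold change of (FPKM + 1), Foxl2-LSL minus control, for 66 tested genes that act on collagen or accompany it, in 7 lists and ordered by value within each, with colour for the call. Orange points of the folding list lie between -1.27 and -0.33, and Pcolce2 at 3.09 is the highest point.

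Start regions of the chains were compared as a description. The RefSeq table held 38 windows for 35 of the 44 chains, 12 of them from chains that were lower. Of these 12 windows, 7 held a CCAAT box (58.3%, against 33.8% of all windows) and 9 a GC box (75.0% against 32.7%). Over all 38 collagen windows the shares were 34.2% and 57.9%, and the 12 windows hold Col6a2 and Col18a1 at 2 starts each. The lower chains Col12a1, Col14a1 and Col26a1 had no window. For 32 of the 38 windows, bases just after the start were found in a GENCODE M21 transcript of the gene. Among the 12, this failed for Col6a4 (1 CCAAT box and 2 GC boxes) and for 1 start of Col6a2 (3 GC boxes). Bases G and C made up 54.0% to 75.6% of the 12 windows, against a median of 52.4% over all windows. The TATA box occurred in 0 of the 12 and in 12.4% of all windows, and the forkhead core occurred in 1, that of Col6a1 (3.17% of all windows). A match gives letters only and does not show a factor at the site.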

How the data were processed

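RNA sequencing of whole uterus gave 3 control and 4 Foxl2-LSL libraries. Per the submitters' processing notes the tools were STAR 2.5.2b, featureCounts 1.5.0-p1 and DESeq2 1.12.4 with build mm10. Their roles, the annotation and the use of strand are not given in the sources used here. The authors deposited 1 table of FPKM values per gene and library, with gene lengths as another column, per the file headers. FPKM times length fell on whole multiples of 1 step per library (100% of 1653 to 1832 low values within 0.1), which gave the fragments. Counting intervals would cover counting error only. Libraries of a group differed by a chi-square per gene of 21.5 to 203, so none was a copy.

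Values were converted to log2(FPKM + 1), which understates changes of low genes. Genes with a mean of at least 1 FPKM were tested, with Foxl2 kept. This left 13334, compared by limma 3.58.1 in R 4.3.3 with an intensity trend and Benjamini-Hochberg adjustment at 0.05. The steps were tested on simulated data. The exact permutation test over 35 splits cannot go below 0.0571. Same-numbered libraries are not stated to be paired, so no block was used. Python 3.11.15, pandas 2.3.3 and matplotlib 3.10.9 made tables and plots. Positions came from GENCODE M21 (GRCm38) by symbol. Related chains may share reads.

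The members and lists were chosen with earlier results of these data known. Per-library values are given for Col7a1, for chains past the threshold with a log2 change of at least 1 and for the most abundant chain of each class, and values of chains of the same protein stand together. In each partner list up to 3 genes past the threshold with the largest change are named, and Serpinh1, Lox, P4ha1, Bmp1, Ddr2 and Mmp2 whatever their result. Values of the remaining partners are not reported here. Other partners and the promoters shown were picked after their values were seen. The 18 alternatives covered the pseudocount, filter, scaling, GC and length, trend, limma-voom, each library left out and the replicate block. Marker lists covered stroma, smooth muscle, epithelium, glands, basal epithelium, endothelium, leukocytes, adipocytes, mesothelium, cartilage and red cells.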

Additional observations from a re-analysis of the deposited data

Results flagged for a closer look

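In the group of 4 Foxl2-LSL libraries, the gap of an extreme library to its neighbour was compared with the whole range of the group, using Dixon's 95% limit. Of 70 chains, sums, ratios and partner genes examined this way 4 passed it, where chance flags about 1 in 20. Col14a1 was at 3.96 FPKM in Foxl2-LSL 4 against 3.44 to 3.47 FPKM in the other libraries of the group, a small difference beside the control level. Relative to Col6a1, Col6a3 stood at 0.235 in Foxl2-LSL 2 and at 0.300 to 0.311 in the rest. For Col4a6 to Col4a5, the ratio was 0.619 in Foxl2-LSL 1, and the others were at 0.545 to 0.553. Bmp1 was at 23.1 FPKM in Foxl2-LSL 3 and at 26.8 to 26.9 FPKM elsewhere in the group. Groups of 3 are too small for this comparison, so the spread of the controls was not examined in this way.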

How the results depend on the processing

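Of the 28 tested chains, 11 of the 15 called kept their call in every alternative that tested them, and Col4a4, Col6a4, Col6a6 and Col16a1 did not. The count of chains called lower was 13 and ranged from 10 to 20 when a library was left out, with 20 reached without control 1. The count called higher was 2. It was 1 after rescaling to a common sum, 0 with a mean of at least 5 FPKM, where Col4a4 and Col23a1 were not tested, and 1 to 2 when a library was left out. Under a replicate block, which uses numbers 1, 2 and 4, 11 chains passed (10 lower and 1 higher, all among the 15), and 3243 genes in all against 5409. The block with the GC and length correction also gave 11 chains, 1 of them higher, and 3328 genes in all. Apart from Col4a4, Col6a4, Col6a6 and Col16a1, the block changed no call of a chain. Among named partners Adamts14, Ddr1, Cspg4, Tmem38b and Fap lost their calls under the block. Serpinh1 (limma adjusted p 0.0514), P3h1 and Bmp1 lost theirs in the block with the correction. P4hb, P3h3, Plod3, Crtap, Plod1, Ctsk and the marker Vim lost theirs in both, and the markers Pecam1 and Tie1 with the correction. For libraries sharing a number, deviations correlated at 0.228 (number 1), -0.0310 (number 2) and -0.112 (number 4). Control 1 correlated best with the library of its own number. Control 2 and control 4 correlated better with a library of another number (0.12 with Foxl2-LSL 1 and 0.191 with Foxl2-LSL 2). With so few libraries, these values cannot decide whether the numbers mark pairs. The share of higher genes among all calls was 41.1%, and 49.2% after quantile normalization, 50.4% after median centring (which moves the median of all genes from -0.05 to 0) and 38.2% after rescaling. With centring 12 chains were lower and 3 higher.

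Signs changed only for values that did not pass. With a library left out, Foxl2 ranged from -0.10 to 0.275 (-0.013 without Foxl2-LSL 4), Col15a1 from -1.138 to 0.356 (positive without control 4), Lox from -0.012 (without control 1) to 0.389 and Ddr2 from -0.132 to 0.048. Ddr2 was also 0.027 after quantile normalization, 0.020 after median centring, 0.013 with the GC and length correction and 0.026 with that correction and the replicate block. The causes were not tested. The tested chains had at least 58 fragments in each library, and the effect of depth was not tested.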
